A study of Emberiza melanocephala with 4 samples.

Results

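Transcripts of the mitochondrial genome were followed in RNA of a migratory songbird, the black-headed bunting (Emberiza melanocephala). The members are all transcripts placed on the mitochondrial sequence (MT) in the 4 deposited transcript lists, and they form 4 of the 750 loci listed in any library. The birds were caught from the wild, and hypothalamus and liver each have 1 library titled SD, for short day, and 1 titled LD, for long day. The hypothalamus is the brain region that governs seasonal reproduction and feeding, and the liver is the main organ of fat and sugar metabolism. All 4 groups share the species and the wild origin, and the age of the birds, the number of birds behind each library and the daily hours of light are not stated in the labels. With 1 library per group there is no test, no error and no p-value.

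Mitochondria carry their own small circular genome, which encodes a few core subunits of the respiratory chain together with the ribosomal and transfer RNAs needed to translate them. The other proteins of mitochondria, including most respiratory chain subunits, are encoded in the nucleus. In vertebrates the genes of the small and the large mitochondrial ribosomal RNA lie next to each other, with a transfer RNA gene between them. Protein-coding genes interspersed with further transfer RNA genes follow, and COX1, the catalytic core subunit of cytochrome c oxidase, is one of them.

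The labels of the libraries are in doubt in 2 ways that touch every comparison. The title and the recorded seasonal state disagree for 2 libraries, that titled LD hypothalamus being recorded as short day and that titled SD liver as long day, and groups follow the titles here. Of 13 neuron markers, 0, 2, 0 and 4 were listed in the short-day and long-day hypothalamus and the short-day and long-day liver libraries, and of 8 glia markers 0, 2, 0 and 2. Of 13 hepatocyte markers, 1 was listed in each library except LD hypothalamus. That marker was APOA1, a protein component of blood lipoproteins that is used here as a hepatocyte marker. Its level was 327 FPKM under the SD hypothalamus label, 655 FPKM under SD liver and 20.9 FPKM under LD liver. These levels rest on 8154, 12148 and 587 aligned bases, on transcripts of 1579, 892 and 1579 bases in that order. The level under SD liver, per length of a shorter transcript, is therefore not like for like with the others. The listed markers thus go against the tissue label of the libraries labelled SD hypothalamus and LD liver, and libraries are named by their labels. For SD hypothalamus this rests on APOA1 alone, with the other hepatocyte markers unlisted there, so its tissue is not settled. The libraries listed 106, 280, 175 and 473 loci, the hypothalamus labels first and SD before LD. A marker may therefore be unlisted because the list is short, and this was not tested. None of the 4 blood and 4 muscle markers was listed. FPKM is the mean coverage of a transcript scaled by the aligned bases of the library, and is a level per transcript length. The aligned sequence came to between 13.3 and 20.8 megabases per library.

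All 11 mitochondrial entries of the 4 files were reference transcripts of the collared flycatcher with 1 exon on the plus strand, and 0 were newly assembled. Positions are those of the flycatcher build FicAlb_1.4. ENSFALG00000016231 spans the 983 bases that start at MT 68. After 69 unlisted bases comes ENSFALG00000016233, which spans 1596 bases. Both lie ahead of the other listed features, which is the place of the small and the large ribosomal RNA genes in the vertebrate order. The files pair neither identifier with a name, so they are called the 983-base and the 1596-base feature here. A further 1213 unlisted bases precede ENSFALG00000016238 (MT 3929 to 3997, 69 bases), also without a name. Another 1387 unlisted bases precede COX1 (ENSFALG00000016245, MT 5385 to 6944, 1560 bases), the 1 member with a gene symbol. Of the 13 protein-coding genes of the vertebrate mitochondrial genome, COX1 was thus the only one listed by symbol.

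Listing was uneven along the genome. The 983-base and the 1596-base feature were listed in all 4 libraries, COX1 in 2 and ENSFALG00000016238 in 1. The library labelled LD hypothalamus listed 4 members, SD liver 3, and SD hypothalamus and LD liver 2 each. A feature without an entry is called not listed rather than absent, because bunting reads that differ from the flycatcher sequence may fail to align. The samples are labelled total RNA and the series speaks of mRNA. Whether poly(A) RNA was selected, which would bear on ribosomal RNAs and on messages in different ways, is not stated, and its part was not tested.

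**Figure D1:**
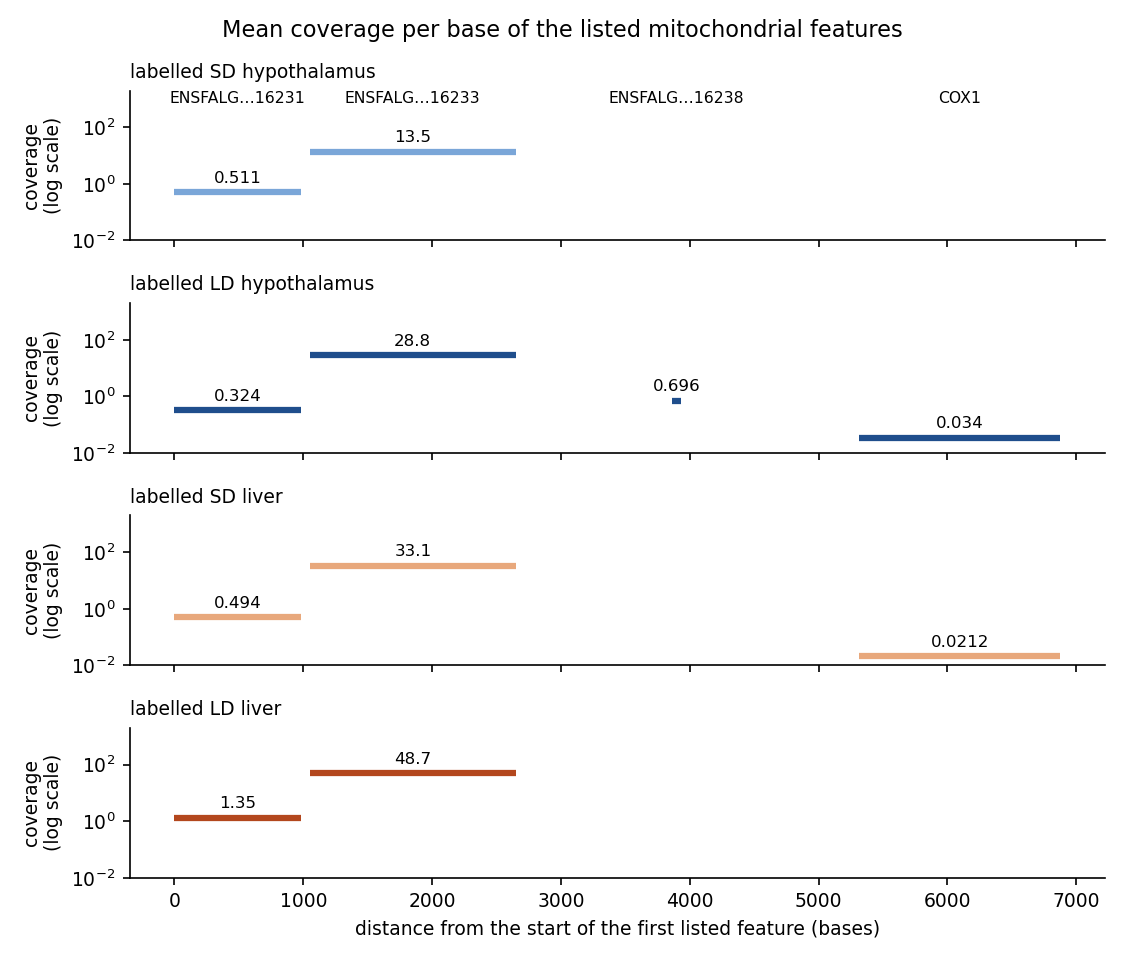
Mean coverage per base (y axis, log scale) of each listed mitochondrial feature, drawn as a segment over its position (x axis, distance in bases from the start of the first listed feature), with 1 panel per library. The 1596-base feature stands between 13.5 and 48.7, and every other listed segment lies between 0.0212 and 1.35.

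The 1596-base feature carried nearly all mitochondrial sequence. Its mean coverage per base was 13.5 and 28.8 in SD and LD hypothalamus and 33.1 and 48.7 in SD and LD liver, from 21553, 45942, 52870 and 77771 aligned bases. These were 97.7%, 99.1%, 99.0% and 98.3% of all aligned bases on listed mitochondrial features. Its level was 855 FPKM in SD hypothalamus, 2169 FPKM in LD hypothalamus, 1594 FPKM in SD liver and 2740 FPKM in LD liver, a 3.21-fold range. LD liver was thus highest and SD hypothalamus lowest, and the library titled LD was above that titled SD for each tissue label. By the recorded seasonal state both hypothalamus libraries are short day and both liver libraries long day, so that season and tissue cannot be told apart. By the markers, each such pair sets a library with listed neuron markers over one without any listed, and the order shows no more than these 4 levels. From the highest level down, each library stood above the next by a factor of 1.26, 1.36 and 1.86, and without replicates it cannot be said which of these neighbours differ beyond their spread. By FPKM it ranked 17 of 106 and 11 of 280 listed loci in SD and LD hypothalamus, and 13 of 175 and 11 of 473 in SD and LD liver.

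The 983-base feature, its listed neighbour upstream, was far less covered and had another order of libraries. It was at 32.3 FPKM in SD hypothalamus, 24.4 FPKM in LD hypothalamus, 23.8 FPKM in SD liver and 75.8 FPKM in LD liver, a 3.19-fold range. One library, LD liver, stood 2.34-fold above the next, SD hypothalamus, while LD hypothalamus and SD liver differed by a factor of 1.02. The values rest on 502, 318, 486 and 1325 aligned bases in that order. In the first 3 libraries the aligned bases were fewer than the bases of the feature, so that at most 51.1%, 32.4% and 49.4% of it can have been covered. By FPKM it ranked 77 of 106, 205 of 280, 123 of 175 and 273 of 473 listed loci, well below its neighbour in each library. Those lists mix reference transcripts with assembled loci. By coverage it stood above 30 of 56, 82 of 183, 54 of 88 and 208 of 251 reference transcripts, in the same order.

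The ratio of the 1596-base to the 983-base feature within a library does not depend on the library total. In FPKM, and so per length, it was 26.4 in SD and 88.98 in LD hypothalamus, and 67.0 in SD and 36.2 in LD liver. It was highest in LD hypothalamus and lowest in SD hypothalamus, a 3.36-fold span. Whether the ratio differs beyond counting error was not tested. The lower member of the pair rests on 318 to 1325 aligned bases, so the ratios are not secure.

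By aligned bases, the remaining members were close to the lower end of what the files list. COX1 stood at 2.56 FPKM in the library labelled LD hypothalamus and at 1.02 FPKM in that labelled SD liver, and the other libraries did not list it. These levels rest on 53 and 33 aligned bases, which can cover at most 3.40% and 2.12% of its 1560 bases. COX1 ranked 276 of 280 listed loci by FPKM in LD hypothalamus and 175 of 175 in SD liver. ENSFALG00000016238 had 52.4 FPKM in LD hypothalamus, from 48 aligned bases on a feature of 69 bases, at most 69.6% of it. On so short a feature a high FPKM needs few aligned bases. It ranked 152 of 280 listed loci by FPKM and 266 of 280 by aligned bases. The reference transcripts with the fewest aligned bases above 0 had 44 bases in SD and 5 in LD hypothalamus, and 12.98 in SD and 5.33 in LD liver.

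**Figure D2:**
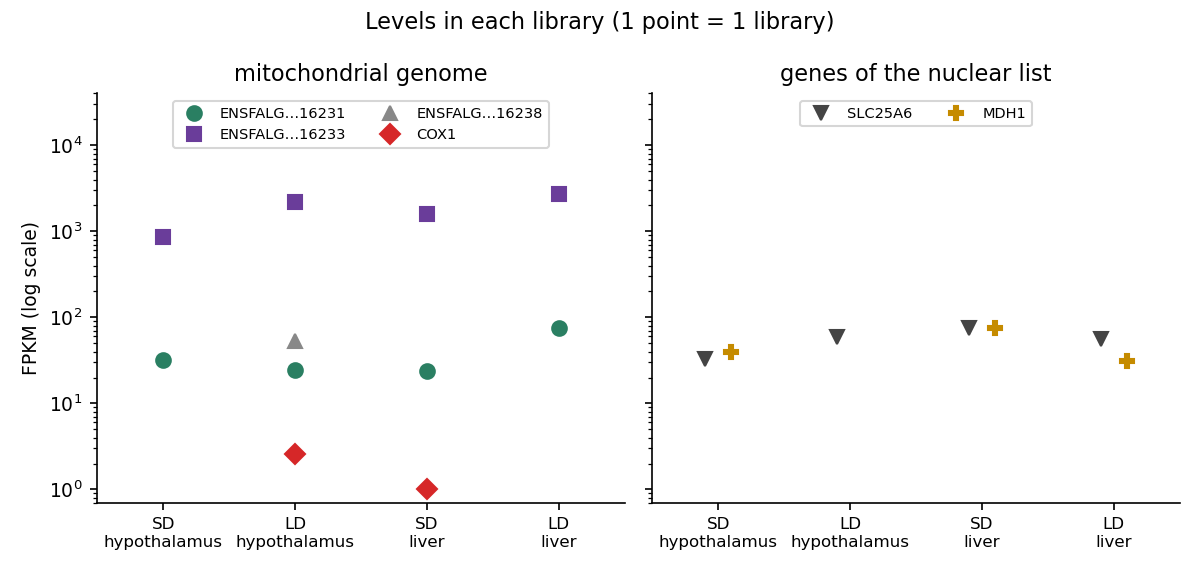
FPKM (y axis, log scale) of the 4 mitochondrial features (left) and of the listed members of the nuclear list (right) in the 4 libraries named on the x axis, 1 point per library, with no point where a gene was not listed. The 1596-base feature lies between 855 and 2740 FPKM, above all other points, and COX1 lies lowest at 2.56 and 1.02 FPKM.

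Mitochondrial features together held a small part of each library. They took 0.140% and 0.349% of the aligned bases in SD and LD hypothalamus, and 0.257% and 0.445% in SD and LD liver. The highest share, in LD liver, was 3.19 times the lowest, in SD hypothalamus. The order is that of the 1596-base feature, which adds nothing new, since that feature holds 97.7% to 99.1% of these bases. For scale, the locus with the most aligned bases was an unnamed assembled one on JH603816.1 (22792 to 24744, minus strand). In the order of libraries just given it held 216, 68.1, 142 and 47.0 times the aligned bases of all mitochondrial features. The plus strand of the same scaffold (22792 to 24740) held 78.3, 28.5, 25.5 and 21.1 times as many, and a locus on JH604008.1 (14138 to 14467, minus strand) 7.77, 2.43, 4.72 and 1.699 times as many. The multiple was lower under LD than under SD for each of these loci and each tissue label. All these multiples are divided by the same mitochondrial bases, so the loci are not separate observations of that order. With the 10 highest loci outside MT left out of the total, the mitochondrial shares were 0.255%, 0.551%, 0.487% and 0.666%, in the same order. In tissue RNA, fewer cells of a type and less RNA per cell cannot be told apart.

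Between the libraries labelled hypothalamus, the 1596-base feature was higher in LD and the 983-base feature was not at least 2-fold apart. The log2 ratio of FPKM plus 1, LD over SD, was 1.34 for the 1596-base feature (2169 and 855 FPKM) and -0.39 for the 983-base feature (24.4 and 32.3 FPKM). A locus was called at a 2-fold ratio. Over the 32 loci listed in both libraries 11 were called, or 34.4%, of which 7 were higher (21.9%), around a median log2 ratio of -0.27. Relative to that median the features stood at 1.61 and -0.13. A call such as that of the 1596-base feature was common among listed loci, and it ranked 6 of 32 from the highest. Here and in the other comparisons the loci mix reference transcripts with assembled ones, and shares over reference transcripts alone were not taken. The listed neuron markers summed to 329 FPKM in LD hypothalamus, and none was listed in SD hypothalamus. Glia markers summed to 133 FPKM in LD hypothalamus with none listed in SD hypothalamus, and APOA1 was listed in SD hypothalamus (327 FPKM) and not in LD hypothalamus. The part of these markers in the result was not tested.

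Between the libraries labelled liver, both features had positive log2 ratios, LD over SD. The 983-base feature was called at 1.63 (75.8 and 23.8 FPKM), on only 1325 and 486 aligned bases. The 1596-base feature stood at 0.78 (2740 and 1594 FPKM), within 2-fold. Of the 53 loci in both libraries 20 were called, or 37.7%, 10 of them higher (18.9%), around a median of -0.36. Relative to the median the features stood at 1.99 and 1.14, so that on this scale the 1596-base feature was also past 2-fold, as it was in the deposited TPM (1.15). They ranked 8 and 15 of 53 from the highest. Neuron markers summed to 561 FPKM in LD liver and glia markers to 331 FPKM, and none of either was listed in SD liver. APOA1 was at 20.9 FPKM in LD and 655 FPKM in SD liver, a log2 ratio of -4.91. That ratio mixes transcripts of 1579 and 892 bases, with 587 and 12148 aligned bases. The part of these markers in the result was not tested.

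The comparisons of liver with hypothalamus used the same libraries again. In the short-day pair the 1596-base feature stood at 0.90, liver over hypothalamus (1594 and 855 FPKM), and the 983-base feature at -0.43 (23.8 and 32.3 FPKM). Neither was called, against 14 of 67 loci called (20.9%), 5 of them higher (7.46%), around a median of 0.0027, and they ranked 7 and 48 of 67. In the long-day pair the 983-base feature was called at 1.60 (75.8 and 24.4 FPKM), on only 1325 and 318 aligned bases. The 1596-base feature stood at 0.34 (2740 and 2169 FPKM). In that pair 38 of 142 loci were called (26.8%), 20 of them higher (14.1%), around a median of 0.030, and the features ranked 10 and 47 of 142. No assembled locus of that pair was below 144 FPKM in liver, whereas reference transcripts were listed down to 0.165 FPKM. The share among loci as low as the 983-base feature may thus differ, which was not tested. Beside the short-day pair, APOA1 was at 655 FPKM in liver and 327 FPKM in hypothalamus, with no neuron or glia marker listed in either. The APOA1 transcripts had 892 bases in liver and 1579 in hypothalamus, so these 2 levels are not like for like. Beside the long-day pair, neuron markers summed to 561 FPKM in liver and 329 FPKM in hypothalamus, and glia markers to 331 and 133 FPKM. The neuron sums cover 4 listed markers in liver and 2 in hypothalamus, so they are not like for like. Of the 2 listed in both, SNAP25 was at 462 and 290 FPKM and GAP43 at 26.1 and 38.8 FPKM, liver first. The listed glia markers were GPM6B, at 87.1 and 91.2 FPKM, and SPARC, at 244 and 41.5 FPKM, liver first. The higher glia sum in liver thus came from SPARC alone. SPARC was measured on a transcript of 815 bases in liver and on longer ones in hypothalamus, so the glia sums are not like for like. The part of the markers in these ratios was not tested. The 4 comparisons share libraries, and each call of the 983-base feature involved the library labelled LD liver.

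**Figure D3:**
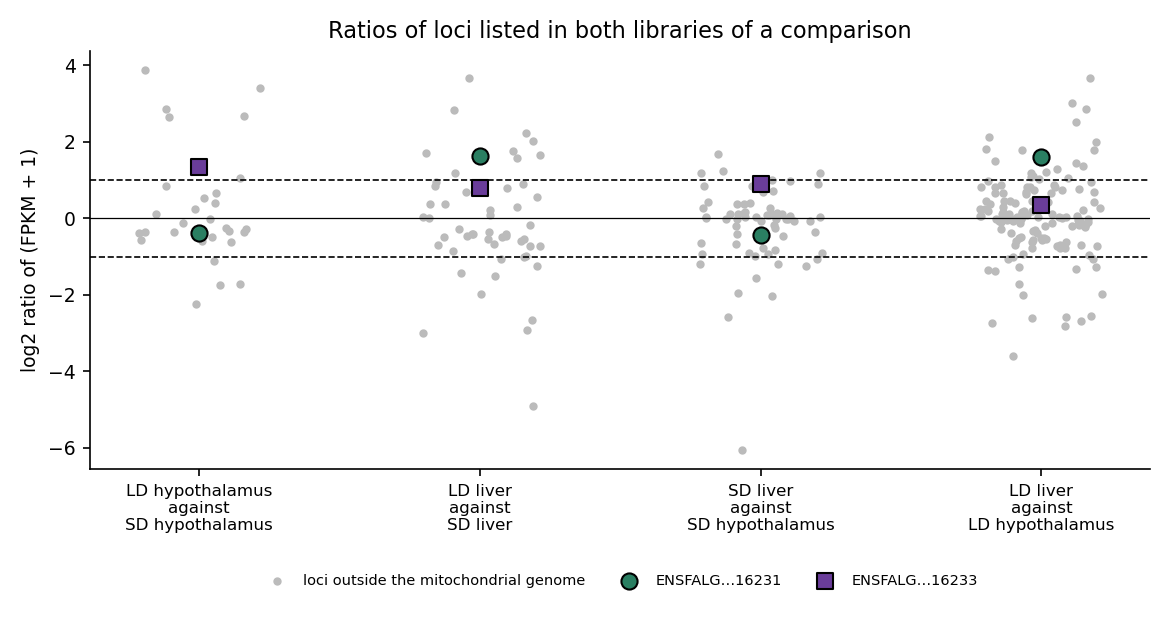
Log2 ratio of FPKM plus 1 (y axis) of every locus listed in both libraries of a comparison (x axis, first library over second), with loci outside the mitochondrial genome in grey and dashed lines at a 2-fold ratio. The 1596-base feature (square) is above 0 in each comparison, from 0.34 to 1.34, and the 983-base feature (circle) lies at 1.63 and 1.60 where LD liver is the first library and at -0.39 and -0.43 elsewhere.

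No comparison can be had without the libraries whose listed markers put the tissue label in doubt, since each of the 4 holds at least 1 of them. Leaving both out leaves LD hypothalamus and SD liver, a pair added after the data were seen, in which season and tissue cannot be told apart. These are also the 2 libraries whose title and recorded seasonal state disagree, so by the record the seasons of this pair are reversed. There, LD hypothalamus over SD liver, the log2 ratio was 0.44 for the 1596-base feature, 0.03 for the 983-base feature and 0.82 for COX1. Of the 35 loci in both libraries 14 were called (40.0%), around a median of 0.28. No mitochondrial feature was called in this pair on the FPKM plus 1 scale. COX1, at 2.56 and 1.02 FPKM, differs 2.52-fold before the pseudocount of 1 is added, on 53 and 33 aligned bases.

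The length of a transcript did not enter these ratios. Both features were measured on a reference transcript of the same length in every library. Of the 21 loci outside MT that were listed in all 4 libraries, 11 also kept the same transcript lengths. For the other 10 loci, transcripts of different length stood in for each other.

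Nuclear genes tied to mitochondrial function were sparsely listed. A list of 77 had 2 listed members, SLC25A6 and MDH1, of which MDH1 encodes a cytosolic enzyme. By role these were 0 of 33 for the respiratory chain and ATP synthase, 1 of 13 carriers and outer membrane proteins, 0 of 20 for mitochondrial transcription, RNA and translation and 1 of 11 enzymes around the citric acid cycle. SLC25A6, an ADP/ATP carrier of the inner membrane, was at 32.5 and 59.5 FPKM in SD and LD hypothalamus and at 74.6 and 55.6 FPKM in SD and LD liver. Like the 1596-base feature it was lowest in SD hypothalamus, but its highest level was in SD liver. MDH1, the cytosolic malate dehydrogenase of the malate-aspartate shuttle, had no entry under LD hypothalamus. It was at 40.1 FPKM under SD hypothalamus and at 74.9 and 30.9 FPKM under SD and LD liver.

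Set against SLC25A6 within a library, the level of the 1596-base feature per length was 26.3 times as high in SD hypothalamus, 36.5 times in LD hypothalamus, 21.4 times in SD liver and 49.3 times in LD liver. The libraries titled LD, which are also the ones with listed neuron markers and the longest lists, had the higher ratios against this gene. Against MDH1 the 1596-base feature was 21.3 times as high in SD hypothalamus, 21.3 times in SD liver and 88.7 times in LD liver. LD hypothalamus has no such ratio, since MDH1 was not listed there. Between the liver labels SLC25A6 had a log2 ratio of -0.42, LD over SD, which is -0.06 relative to the median of all loci. MDH1 was called lower at -1.25, or -0.90 relative to that median, where it is within 2-fold. On the same centred scale the 1596-base and the 983-base feature stood at 1.14 and 1.99. Between the hypothalamus labels SLC25A6 stood at 0.85, or 1.12 relative to the median. The 983-base feature was at 0.995, 0.410, 0.319 and 1.36 times the level of SLC25A6, the hypothalamus labels first and SD before LD.

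Likeness of pattern was measured as the root mean square difference of log2(FPKM + 1), centred on the mean of the 4 libraries, among the 21 loci outside MT listed in all 4. For the 1596-base feature the nearest were ENSFALG00000001530 (0.45), SLC25A6 (0.46) and EIF4A2, an RNA helicase of translation initiation (0.64). The plus-strand locus of JH603816.1 (0.70) and a minus-strand locus on JH603387.1 (81552 to 89354; 0.73) followed. For the 983-base feature they were ENSFALG00000001530 (0.32), EIF4A2 (0.59), the plus-strand locus of JH603816.1 (0.63), the cytoskeletal actin ACTB (0.65) and ENSFALG00000015417 (0.78). ENSFALG00000001530 (JH603256.1, 1381761 to 1389432) was nearest to both, at 162 and 192 FPKM in SD and LD hypothalamus and 139 and 321 FPKM in SD and LD liver, on transcripts that differed in length between libraries. With 4 values per locus taken from the same libraries, these distances are a description only. Values of ACTB are uncertain because near-identical actins can share reads.

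**Figure D4:**
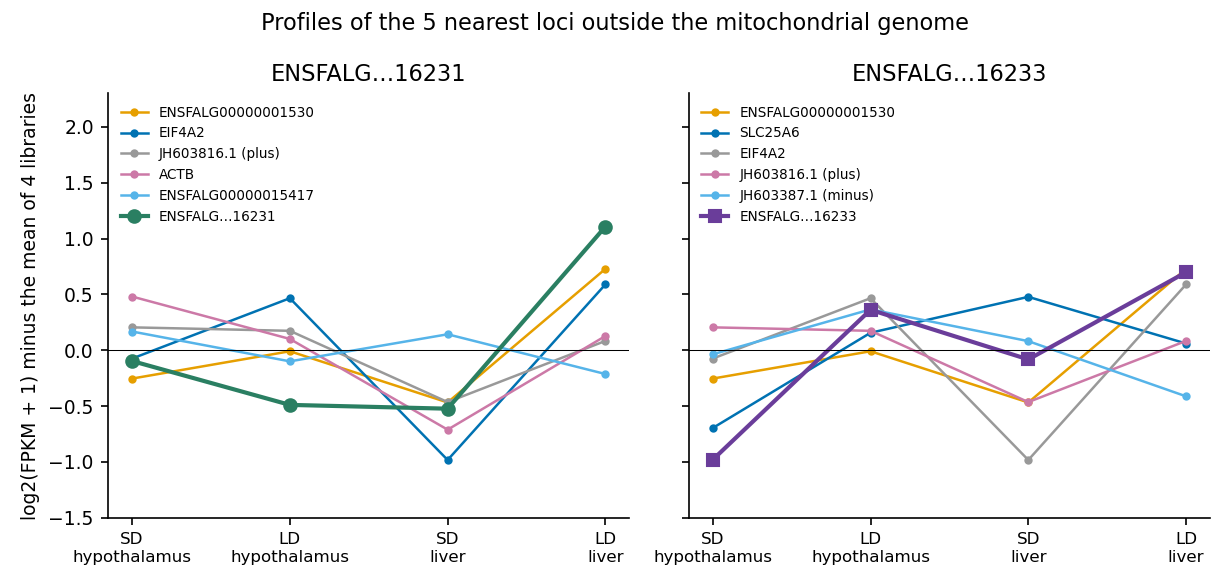
Log2(FPKM + 1) minus its mean over the 4 libraries (y axis) for the 983-base feature (left, thick line) and the 1596-base feature (right, thick line) with the 5 nearest loci outside the mitochondrial genome (thin lines); lines join libraries, named on the x axis, only to guide the eye. The 983-base feature stands at 1.11 in LD liver and below 0 in the other libraries, while the 1596-base feature runs from -0.98 in SD hypothalamus to 0.70 in LD liver.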

How the data were processed

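Per the labels' protocols, RNA of ground tissue went into pyrosequencing libraries. The authors' deposited files hold 1 transcript assembly per library, built by StringTie 1.3.3b on trimmed reads aligned to the collared flycatcher (FicAlb_1.4, annotation release 89), per the file headers. The aligner is not given in the sources used here. Each deposited entry gives mean coverage, FPKM and TPM in 1 text field. Aligned bases are coverage times length, and came within 0.01 of a whole number for all 11 mitochondrial entries. The library total follows from the ratio of FPKM to coverage. No interval for counting error is given, because the values are not read counts.

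Transcripts were joined into 750 loci by same-strand exon overlap of 1 base or more, or by reference gene (Python 3.11.15, tested on simulated data). Log2 ratios used FPKM plus 1 on loci listed in both libraries, with a call at 2-fold. The pseudocount understates the change of low genes. Named were every mitochondrial entry, the listed members of fixed lists, the 5 nearest loci in pattern and the 3 largest loci outside MT. Members and lists were chosen with earlier results of these data known. Alternatives were other pseudocounts, TPM, aligned bases per megabase, rescaling, other totals, other joins and a coverage filter. No sequence is shown, since no reference sequence was used here.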

Additional observations from a re-analysis of the deposited data

Results flagged for a closer look

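The 983-base feature ENSFALG00000016231 had ratios of opposite sign between the season labels under the tissue labels. Its log2 ratio, LD over SD, was -0.39 in the libraries labelled hypothalamus and 1.63 in those labelled liver, a difference of 2.02, liver minus hypothalamus. The hypothalamus value is within 2-fold and was -0.13 relative to the median of all loci and -0.12 in the deposited TPM. The difference was not tested, since each group has 1 library. Of the 23 loci listed in all 4 libraries 5 had opposite signs, and 22 had a lower difference than this feature. The values rest on between 318 and 1325 aligned bases. The 1596-base feature ENSFALG00000016233 had the same sign under both tissue labels, with a difference of -0.56.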

How the results depend on the processing

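Of the 68 alternative values computed for the 8 log2 ratios of the mitochondrial features, 66 kept their direction and their side of the 2-fold limit. Many of these could not differ. Ignoring strands, using reference transcripts only and, for the 1596-base feature, the coverage filter returned the main value. Aligned bases per megabase is FPKM times a fixed length, so it differs only through the pseudocount. The count of 66 is therefore no measure of robustness. The exceptions were both for the 1596-base feature between the liver labels, which passed 2-fold in the deposited TPM (1.15) and after rescaling by the median ratio (1.14), against 0.78; its lowest value, 0.44, came with the 10 highest loci left out of the totals. The 983-base feature has no value under the coverage filter of 2.5, since it never reached that coverage. In aligned bases, which are not divided by length, the ratio of the 1596-base to the 983-base feature was 42.9 and 144 in SD and LD hypothalamus and 109 and 58.7 in SD and LD liver. The mitochondrial share was 0.298%, 0.862%, 0.517% and 1.13% of listed bases, and without the 10 highest loci 0.255%, 0.551% and 0.487% in the first 3 libraries. With the coverage filter, fewer loci are compared, and 3, 7, 6 and 1 were at least 2-fold apart in the comparisons of hypothalamus, liver, SD and LD labels. Without it these were 11 of 32, 20 of 53, 14 of 67 and 38 of 142. The number of loci compared under the filter is not given, so the filtered counts cannot be read as shares. Rescaling changed the split between the liver labels from 10 higher and 10 lower to 16 and 7. No paired analysis was possible because each group has 1 library and the labels give no replicate numbers. Leaving out a library removes its group, and the pair left without the libraries of doubtful tissue is given above. COX1, ENSFALG00000016238 and the 983-base feature rest on 33 to 1325 aligned bases each, so their values are not secure.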
